A study of Mus musculus with 48 samples.

Results

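The genes described here are 9 members of the stress hormone axis, namely the glucocorticoid receptor gene Nr3c1, the mineralocorticoid receptor gene Nr3c2, the co-chaperone gene Fkbp5, the kinase gene Sgk1, the corticotropin-releasing hormone gene Crh, its receptor genes Crhr1 and Crhr2, the binding protein gene Crhbp, and Pomc, which encodes the precursor of corticotropin. The loci of a gene are the regions of the deposited count table that overlap its body in the GRCm38 assembly or the 5 kb on either side. This rule found 78 of the 187695 loci of the table at 8 of the 9 genes, and 0 at Pomc. Over the genome, 37004 of 55413 annotated genes had at least 1 locus by the same rule. The rule names the genes by their role and uses no measured value, but earlier results of these data were known when they were chosen.

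DNA was taken from the amygdala of male C57BL/6 mice of 4 months (of the substrain C57BL/6N by the methods of the study) and enriched for methylated fragments on a protein that binds methylated CpGs through its MBD domain, and these fragments were sequenced (MBD-seq). A count at a locus is thus a measure of captured DNA, which is enriched for methylated fragments. The mice carried a constitutive inactivation of Tph2, whose enzyme catalyses the rate-limiting step of neuronal serotonin synthesis, on both alleles (Tph2-/-), on a single allele (Tph2+/-) or not at all (Tph2+/+). Of each genotype, 8 mice underwent maternal separation (MS), in which pups spent 3 h daily away from the dam between postnatal days 2 and 15, and 8 did not (control, C). The paper states that C and MS mice alike were housed singly after weaning. They also went through anxiety, open-field and resident-intruder tests before tissue was taken. By the methods of the study, whole litters were assigned to MS or C. The labels give no litter, so the fits take each mouse as independent, which littermates may not be. Since Tph2 was inactivated from conception in every cell, the model does not separate developmental from adult serotonin loss. Both amygdalae of a mouse were pooled, and each mouse gave 1 library, so that the 48 libraries form 6 groups of 8. Replicates 3 and 7 of the Tph2-/- MS group, whose totals were its lowest, were left out of every fit and of the values below, which rest on 46 libraries (24 C and 22 MS) unless stated.

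In the stress response, neurons of the hypothalamus release corticotropin-releasing hormone, the pituitary answers by cleaving corticotropin from the Pomc product, and the adrenal cortex releases corticosterone. The hormone binds the receptors made from Nr3c1 and Nr3c2, which act on DNA and restrain the axis, and Fkbp5 is induced by them and lowers their affinity for the hormone. The amygdala has its own neurons that make corticotropin-releasing hormone and is rich in Crhr1, and early adversity is often studied at CpG sites of these genes.

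Capture favours fragments with methylated CpGs, and the sequences of the members differ in their CpGs, though a sequence does not show which are methylated. Counts were not confined to CpG-rich loci, since 13 of the 78 held under 1 CpG per 100 bp. Below are the 250 bases before the RefSeq start of Crhbp, the only member whose annotated start lay inside a locus (chr13:95444832-95445081, minus strand), and the same stretch for Pomc, which had no locus (chr12:3954695-3954944, plus strand), and for Crhr1, whose CpG-rich start lay outside its loci (chr11:104132531-104132780, plus strand). The 5′-most annotated start of Crhbp, chr13:95444924, lies within the printed stretch, so part of it is inside the annotated gene. They are followed by the 200 bases with the most CpGs of the Fkbp5 locus with the smallest p after MS (chr17:28406058-28406257, minus strand) and of the Crh locus nearest to its start (chr3:19695990-19696189, minus strand). The sequences are from RefSeq, assembly GRCm38.p6, written 5′ to 3′ on the strand of the gene, and capitals mark each CpG.
Crhbp promoter: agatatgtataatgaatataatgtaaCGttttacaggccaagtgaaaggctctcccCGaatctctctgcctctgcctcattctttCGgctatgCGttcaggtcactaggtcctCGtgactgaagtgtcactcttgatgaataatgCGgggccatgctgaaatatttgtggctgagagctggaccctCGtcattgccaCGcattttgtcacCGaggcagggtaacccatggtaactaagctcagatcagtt
Pomc promoter: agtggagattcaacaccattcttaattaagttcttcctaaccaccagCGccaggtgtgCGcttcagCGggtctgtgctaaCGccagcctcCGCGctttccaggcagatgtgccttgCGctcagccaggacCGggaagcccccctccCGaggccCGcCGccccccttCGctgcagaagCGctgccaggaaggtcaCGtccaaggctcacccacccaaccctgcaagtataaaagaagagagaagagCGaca
Crhr1 promoter: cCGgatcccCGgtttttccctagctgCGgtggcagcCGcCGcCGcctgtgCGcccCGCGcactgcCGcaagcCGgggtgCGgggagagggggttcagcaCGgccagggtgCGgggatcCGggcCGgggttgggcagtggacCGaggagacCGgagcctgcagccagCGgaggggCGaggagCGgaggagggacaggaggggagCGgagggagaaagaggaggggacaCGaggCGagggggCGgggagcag
Fkbp5 locus stretch: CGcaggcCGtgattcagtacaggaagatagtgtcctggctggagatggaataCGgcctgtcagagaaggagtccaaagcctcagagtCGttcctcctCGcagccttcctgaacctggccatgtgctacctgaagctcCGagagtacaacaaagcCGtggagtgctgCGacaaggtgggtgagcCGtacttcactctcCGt
Crh locus stretch: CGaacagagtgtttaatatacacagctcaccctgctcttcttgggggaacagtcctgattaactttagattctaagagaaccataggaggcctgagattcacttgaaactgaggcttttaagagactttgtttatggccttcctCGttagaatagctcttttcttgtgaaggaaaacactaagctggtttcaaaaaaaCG
These stretches hold 9 CpGs in Crhbp, 15 in Pomc and 25 in Crhr1, and 10 in the Fkbp5 stretch against 3 in that of Crh.

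RefSeq promoters, counted as 250 bases before to 50 bases after a start, were available for 7 of the 9 genes. Crhr1 held 31 CpGs in its promoter, more than 89.4% of the 32851 promoters of the table, and Fkbp5 held 32, more than 90.5%. Pomc held 18 and Nr3c2 held 17, against a median of 7 over all promoters. Crhbp held 9 and Crhr2 held 5, while the 6 promoters of Sgk1 ran from 3 to 28. None of these promoters but that of Crhbp overlapped a locus. The letters of a glucocorticoid response element, AGAACA and TGTTCT with any 3 bases between, sought on both strands, occurred in 3 promoters of the table (0.00913%), and the Sgk1 promoter at chr10:21993640-21993939 was 1 of them. The cAMP response element TGACGTCA occurred in 588 promoters (1.79%) and in none of the members.

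The loci lay mostly away from the starts of the genes. Of the 78 loci, 49 lay in introns only, 16 reached a coding exon, 3 an untranslated exon and 2 an exon of a non-coding transcript, while 5 lay upstream and 3 downstream. The distance from the 5′-most annotated start to the nearest locus was 0 for Crhbp, where the locus covered both annotated starts, 475 bp for Crh, 1828 bp for Crhr1, 2149 bp for Nr3c1, 3261 bp for Nr3c2, 4276 bp for Sgk1, 5330 bp for Crhr2 and 7154 bp for Fkbp5. These starts can lie far from the RefSeq promoters above. The 5′-most start of Fkbp5 was chr17:28517527 and its promoter chr17:28486100-28486399. That of Sgk1 was chr10:21882184, and its promoter with 28 CpGs was chr10:21994416-21994715. Across the genome, 1445 of 21938 coding genes (6.59%) had a locus over the start. The median coding start had 41 CpGs within 500 bp, and the median start that was covered by a locus had 22. The most CpG-rich start of Nr3c1 had 142 CpGs within 500 bp and the start of Crhr1 had 89, and none of the starts of these genes lay in a locus.

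The genes also differed in how densely they were covered. Crhr1 had 14 loci in a window of 52.7 kb (26.6 per 100 kb), Crh 3 in 12 kb (25), Crhbp 5 in 23.6 kb (21.2) and Crhr2 10 in 53 kb (18.9), all above the median of 7.34 per 100 kb over coding genes. Fkbp5 had 17 in 128 kb (13.2) and Sgk1 8 in 128 kb (6.26). Among genes with a locus the steroid receptor genes were the most sparsely covered, with 17 loci in 356 kb at Nr3c2 (4.78) and 4 in 119 kb at Nr3c1 (3.36). The share of a window's CpGs that lay inside loci ran from 33% at Crhbp to 5.45% at Nr3c1 among genes with a locus, against 18.4% over the genome. The Pomc window of 15.7 kb held 203 CpGs, and the locus nearest to the gene ended 11828 bp before its start, at chr12:3942170-3943123. Among coding genes, 4712 (21.5%) were likewise without a locus, so the 0 at Pomc is a common outcome and says nothing of how methylated the gene was.

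The 78 loci were ordinary in width and sequence. Their median width was 912 bp (452 to 3431), against 916 bp over all loci, their median CpG density 1.71 per 100 bp against 1.82, and their median GC content 47.7% against 47.3%. Fewer lay in repeats: 8 loci (10.3%) were over 50% repeat-masked, against 25.7% of all loci. The mean count of a locus over all 48 libraries was 12.1 to 278 with a median of 24.6, and 1 locus had a count of 0 in some library. The level per kb of locus, in counts per Mcount of the TMM-scaled library (CPM), had a median of 2.57 against 2.76 over all loci. Its rank correlation with CpG density, a description over loci of the same libraries, was 0.18 among the 78 loci and 0.45 among all loci. In the plot of level against CpG density, the locus farthest from the others was in an intron of Nr3c2 (chr8:77140367-77143674), with 7.7 CPM per kb at 3.3 CpGs per 100 bp.

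**Figure D1:**
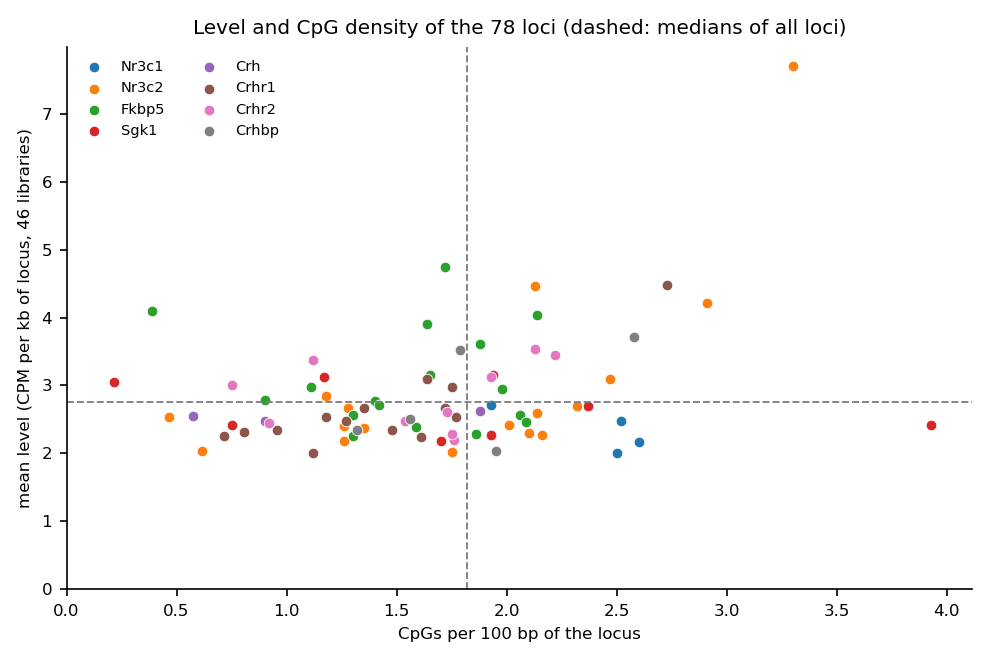
Each point is 1 of the 78 loci, with its CpGs per 100 bp on the horizontal axis and its mean level in CPM per kb over 46 libraries on the vertical axis, coloured by gene; dashed lines are the medians of all loci of the table (1.82 and 2.76). Most points lie near or under both medians, and the Nr3c2 intron locus at 7.7 CPM per kb stands apart.

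That locus was 88.4% repeat-masked and had 83 copies elsewhere in the genome (at least 95% identity over at least 50% of its length). Its neighbour at chr8:77136062-77139492 was 79.6% masked, with 57 copies. The other 76 loci had none by this measure. Reads of these 2 loci may come from any of the copies, so their counts are not assigned to Nr3c2 with certainty.

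Total counts per library, over all 48 libraries, ran from 7.72 to 14.1 Mcounts, of which the 78 loci took 0.0187 to 0.0279%. The libraries carry sample numbers that do not mix the conditions: S1 to S17 and S42 to S48 are C, and S18 to S41 are MS, so that the order and MS cannot be told apart over all libraries. Fits without S18 to S26 keep 14 MS libraries, those of Tph2-/- being S33, S34 and S37. With fewer libraries, such fits reach a given p-value less readily. The CpG slope, a measure of capture, is for each library the change of its log2 counts, relative to the mean of each locus, per SD of CpG density. Over all 48 libraries it averaged 0.104 ± 0.102 (SD, n = 9) in S18 to S26, against -0.018 ± 0.032 (n = 17) in S1 to S17, -0.022 ± 0.048 (n = 15) in S27 to S41 and -0.044 ± 0.035 (n = 7) in S42 to S48. Tph2-/- MS replicate 2, which is S19, had a slope of 0.211 and is named below where its value stands out. No fit left out this library alone. The genotypes rest on the labels, since captured DNA summed over the 15 loci of Tph2 differed by -0.06 ± 0.05 on the log2 scale between Tph2-/- and Tph2+/+ mice (SE). In bulk tissue, a lower share of methylated copies in each cell and a different mix of cells cannot be told apart.

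Summed over its loci and given per kb of locus, captured DNA was highest at Nr3c2, with 3.84 ± 0.263 CPM per kb (SD, n = 46), followed by Fkbp5 with 3.23 ± 0.245, Crhbp with 3.00 ± 0.309, Crhr2 with 2.90 ± 0.245, Crhr1 with 2.88 ± 0.279, Sgk1 with 2.67 ± 0.245, Crh with 2.55 ± 0.54 and Nr3c1 with 2.36 ± 0.529. The step from Nr3c2 to Fkbp5 (0.619) was larger than the SD of either gene, and the steps between the other neighbours were not. The 2 copied loci made up 55.8% of the Nr3c2 sum. Without them Nr3c2 had 2.63 ± 0.225 CPM per kb over 15 loci and ranked 6 of the 8 genes, between Sgk1 and Crh, so its place at the top rests on counts that are not assigned to it with certainty. Per CpG of its loci, Crh was highest (0.239 ± 0.0507 CPM) and Nr3c1 lowest (0.1 ± 0.0224). The order thus depends on whether a level is set per kb or per CpG.

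Whether MS left a mark at these loci was tested over the 3 genotypes with edgeR's quasi-likelihood test on all 187695 loci. At the limits of the study (a log2 fold change beyond 0.2 in either direction with an unadjusted p under 0.01), 1 of the 78 loci passed, which is 1.28%, against 3.63% of all loci. The share of all loci was 1.26% without S18 to S26 and 1.4% with the CpG slope as a covariate, where 1 member passed as well, but another locus (Fkbp5, described below). Without these libraries or with the slope, the members' share was thus close to that of all loci. At an unadjusted p under 0.05 there were 6 (7.69%), against 12.2% of all loci. After Benjamini-Hochberg adjustment over all loci none passed an adjusted p of 0.05 by edgeR, the smallest among the members being 0.15, while 24 loci of the table passed. By DESeq2, 2 of the 78 loci and 4.15% of all loci passed the limits, and 1 of the 2 an adjusted p of 0.05 (Nr3c2, 0.0305). The log2 fold changes of the members ran from -0.34 to 0.33 with a median SE of 0.13. Captured DNA was higher after MS at 46 of the 78 loci, with a median log2 fold change of 0.03 against 0.002 over all loci. The values of C and MS libraries overlapped at all 78 loci.

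**Figure D2:**
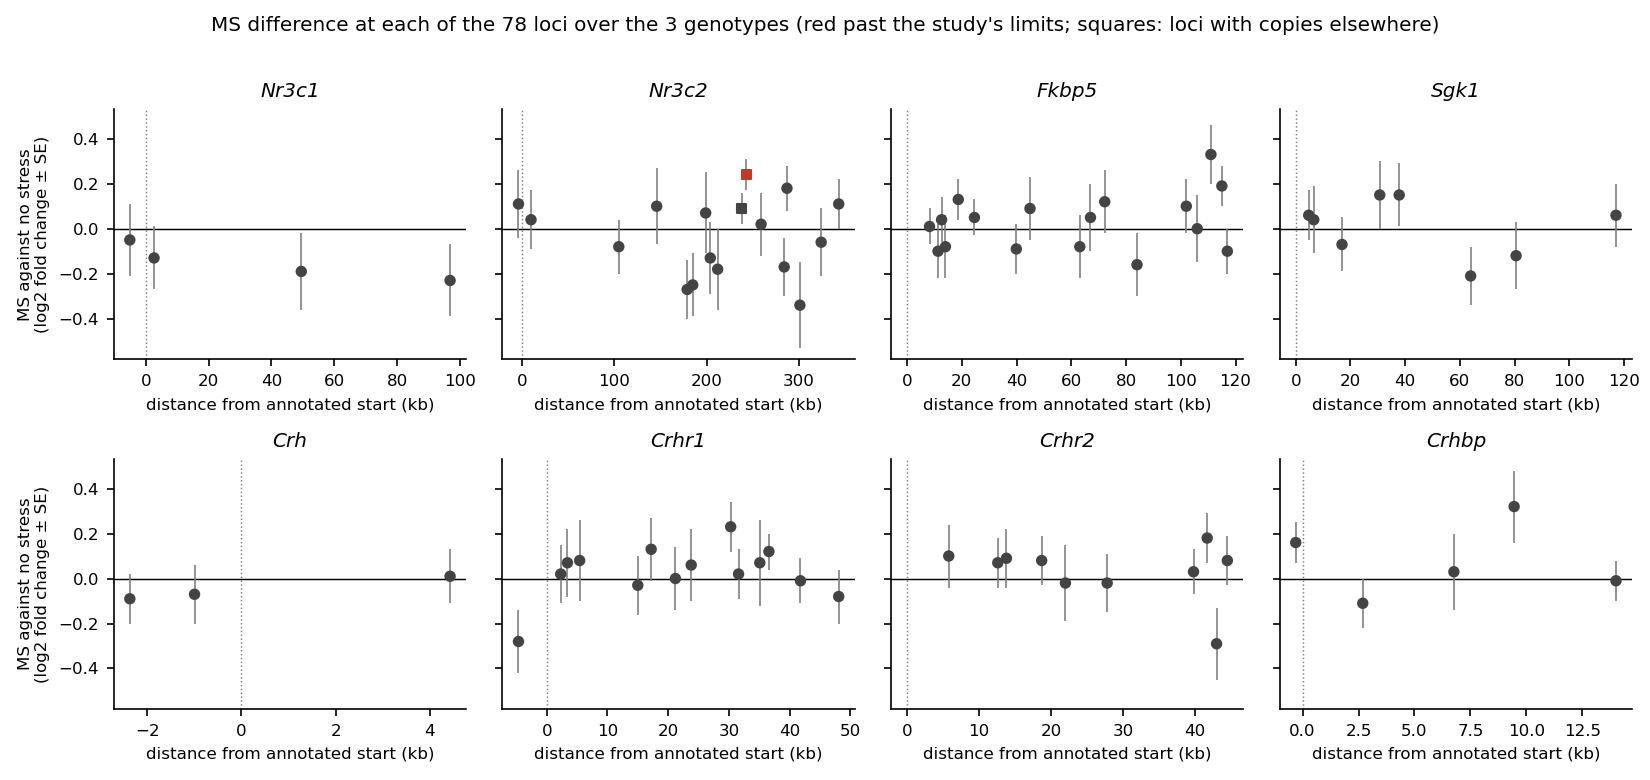
Each panel is a gene, each point a locus at the distance of its centre from the 5′-most annotated start (kb), with the log2 fold change of MS against C over the 3 genotypes and its SE on the vertical axis. Squares are the 2 loci with copies elsewhere, and the Nr3c2 square at 0.24 is the only locus past the limits of the study.

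The glucocorticoid receptor gene Nr3c1 (ENSMUSG00000024431.15, chr18:39410545-39519421, minus strand) had 4 loci, and all 4 had lower estimates after MS, from -0.23 to -0.05, none with a p under 0.05. The lowest was at a coding exon near the 3′ end, chr18:39422164-39422855, with 0.92, 1.64 and 2.54 CPM as the lowest, median and highest C library and 0.231, 1.28 and 2.67 CPM in MS. The MS range enclosed that of C, and the log2 fold change was -0.23 ± 0.16 (SE, adjusted p = 0.595, edgeR). The locus nearest to the 5′-most annotated start, in an intron at chr18:39516393-39517272, also had the most counts per kb. It held 0.816, 2.39 and 4.68 CPM in C and 0.578, 2.22 and 3.41 CPM in MS, a log2 fold change of -0.13 ± 0.14 (adjusted p = 0.771, edgeR). The 5′-most start had 17 CpGs within 500 bp, against 142 at the most CpG-rich of the 9 annotated starts. Summed over the 4 loci, Nr3c1 held 4.82, 7.06 and 10.3 CPM in C and 2.66, 6.41 and 9.55 CPM in MS. Of the 22 MS libraries 3 lay below every C library, and the summed log2 fold change was -0.15 ± 0.09 (95% interval -0.34 to 0.04, adjusted p = 0.406, edgeR). Its group medians for C and MS were 6.5 and 5.96 CPM in Tph2+/+, 8.06 and 7 CPM in Tph2+/- and 7.06 and 6.63 CPM in Tph2-/- mice, lower after MS in each genotype. The low values gathered in 1 run of sample numbers, with a mean of 5.23 ± 1.51 CPM in S18 to S26 (SD, n = 8), against 7.46 ± 1.21 in the other MS run (n = 14), and 7.09 ± 1.29 (n = 17) and 7.9 ± 1.61 (n = 7) in the C runs. Without S18 to S26 the summed log2 fold change was 0.04 ± 0.09, and with the CpG slope as a covariate it was -0.03 ± 0.08.

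The mineralocorticoid receptor gene Nr3c2 (ENSMUSG00000031618.13, chr8:76899442-77245012, plus strand) held the only locus past the limits over genotypes, the copied intron locus at chr8:77140367-77143674. It held 19.4, 23.3 and 29 CPM (lowest, median, highest) in C and 20.5, 27.3 and 38.4 CPM in MS. Of the 22 MS libraries, 15 lay above the C median and 7 above every C library. The log2 fold change was 0.24 ± 0.07 (adjusted p = 0.15, edgeR), and the wildtype, heterozygous and knockout mice had 0.24, 0.23 and 0.25. Of the 7 MS libraries above every C library, 5 belonged to S18 to S26, where the mean was 32.3 ± 5.32 CPM, against 25 ± 3.44 in S27 to S41. Without S18 to S26 the log2 fold change was 0.08 ± 0.07 (adjusted p = 0.942, edgeR), and with the CpG slope as a covariate 0.11 ± 0.05. With all 48 libraries it was 0.36 ± 0.09 (adjusted p = 0.0825, edgeR). Replicate 3 of Tph2-/- MS, left out of the other fits, held 89.6 CPM and had a CpG slope of 0.295, and replicate 7 held 32.9 CPM. With replicates 2 and 3 dropped and 7 kept, the log2 fold change was 0.23 ± 0.07. The copied neighbour at chr8:77136062-77139492 held 10.8, 14.4 and 22.5 CPM in C and 10.4, 15.6 and 20.4 CPM in MS, a log2 fold change of 0.09 ± 0.07 (adjusted p = 0.647, edgeR).

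Summed over its 17 loci, Nr3c2 held 63.2, 71.2 and 78.2 CPM in C and 64.5, 75.6 and 85.8 CPM in MS, with 19 of 22 MS libraries above the C median. The summed log2 fold change was 0.09 ± 0.03 (95% interval 0.04 to 0.15, adjusted p = 0.116, edgeR), the only one of the 8 genes with an unadjusted p under 0.05. When loci over 50% repeat-masked were left out of the sum, it was -0.03. Of the 17 loci of Nr3c2, 9 had higher and 8 had lower estimates after MS. The medians of the sum for C and MS were 72.7 and 76.1 CPM in the wildtype, 69.2 and 73.2 CPM in the heterozygote and 72.1 and 76.4 CPM in the knockout. The locus nearest to the 5′-most start, upstream at chr8:76895536-76896181 and 70.7% masked, had 0.11 ± 0.15 over genotypes.

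**Figure D3:**
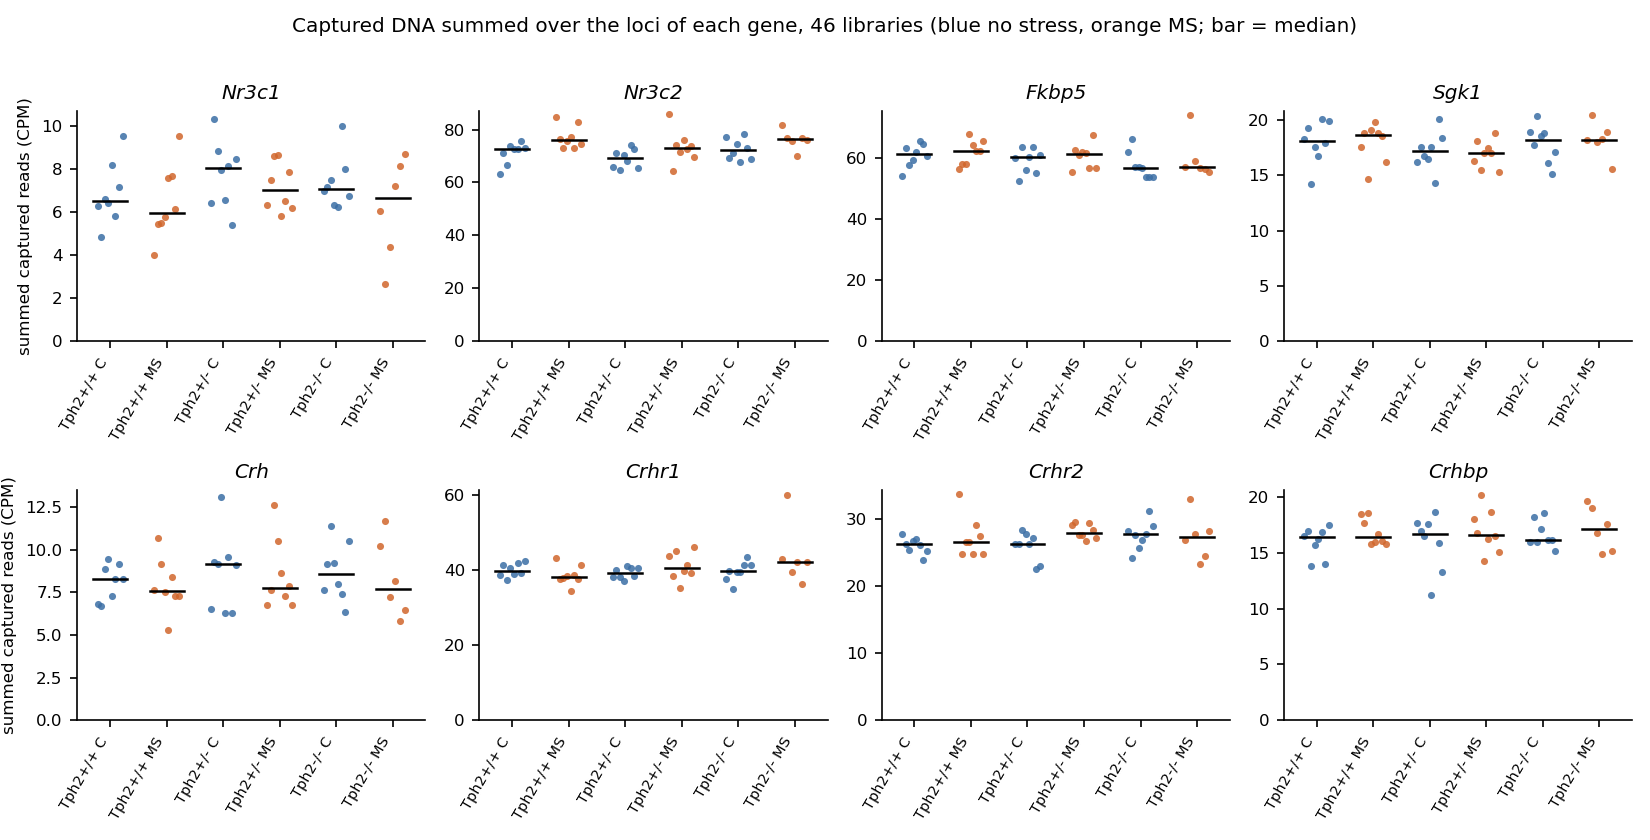
Each panel is a gene and each point a library, with captured DNA summed over the loci of the gene in CPM on an axis that starts at 0; C is blue, MS orange, and bars are group medians (n = 8, and 6 in Tph2-/- MS). The C and MS points overlap for every gene, and single high points stand out in the Tph2-/- MS group of Crhr1 (60 CPM) and Fkbp5 (74.4 CPM).

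Fkbp5 (ENSMUSG00000024222.17, chr17:28399094-28517527, minus strand) had 17 loci, of which 10 had higher estimates after MS. The smallest p was at chr17:28405810-28406617, over a coding exon towards the 3′ end, from which the stretch above was taken. It held 1.06, 2.21 and 3.14 CPM in C and 1.03, 2.66 and 3.88 CPM in MS, and 6 of 22 MS libraries lay above every C library while 1 lay below. The log2 fold change was 0.33 ± 0.13 (adjusted p = 0.273, edgeR), with an unadjusted p just over the limit of 0.01. The wildtype had 0.27 ± 0.21, the heterozygote 0.49 ± 0.21 and the knockout 0.22 ± 0.23. Here the high values lay in the other MS run: S27 to S41 averaged 3.05 ± 0.537 CPM, against 2.05 ± 0.673 in S18 to S26, 2.16 ± 0.516 in S1 to S17 and 1.99 ± 0.727 in S42 to S48. The locus was past the limits of the study under 5 alternatives: 0.33 with DESeq2, 0.34 ± 0.12 with all 48 libraries, 0.35 ± 0.13 with replicates 2 and 3 of the Tph2-/- MS group dropped and 7 kept, 0.39 ± 0.13 with the CpG slope as a covariate and 0.50 ± 0.14 without S18 to S26. The adjusted p by edgeR in the last 4 ran from 0.157 to 0.563. The coding exon locus beside it, chr17:28402140-28403403, had 0.19 ± 0.09 (adjusted p = 0.386, edgeR).

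The remaining Fkbp5 loci moved less. The locus with the most counts per kb, in an intron at chr17:28492158-28493670, had 0.05 ± 0.08, and the one nearest to the 5′-most start, at chr17:28508311-28510373 and 70% masked, had 0.01 ± 0.08. The sum over Fkbp5 was 52.6, 59.8 and 66.5 CPM in C and 55.6, 60.2 and 74.4 CPM in MS, with a log2 fold change of 0.04 ± 0.03 (95% interval -0.03 to 0.10, adjusted p = 0.57, edgeR). The medians of Fkbp5 lay close together, at 61.5 CPM in Tph2+/+ C and 62.5 CPM in Tph2+/+ MS, 60.3 and 61.5 CPM in Tph2+/-, and 56.9 and 57.1 CPM in Tph2-/- mice. The highest value belonged to Tph2-/- MS replicate 2, and with replicates 2 and 3 of the Tph2-/- MS group dropped, and 7 kept, it was 0.02 ± 0.03.

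Sgk1 (ENSMUSG00000019970.15, chr10:21882184-21999903, plus strand), a kinase gene that glucocorticoids induce, had 8 loci with estimates from -0.21 to 0.15, none with a p under 0.05. The smallest p was at an intron locus, chr10:21945737-21946507, 68% masked, with 1.16, 2.38 and 3.97 CPM in C and 1.43, 2.23 and 3.8 CPM in MS, a log2 fold change of -0.21 ± 0.13 (adjusted p = 0.513, edgeR). The locus nearest to the 5′-most start (chr10:21886460-21887390) had 0.06 ± 0.11, the one with the most counts per kb (chr10:21898637-21899614) had -0.07 ± 0.12, and the coding exon locus at the 3′ end (chr10:21998508-21999322), the most CpG-dense of the 78 at 3.93 per 100 bp, had 0.06 ± 0.14. The sum was 14.2, 17.7 and 20.4 CPM in C and 14.7, 18.1 and 20.5 CPM in MS. Its log2 fold change was 0.00 ± 0.05 (95% interval -0.09 to 0.10, adjusted p = 0.976, edgeR), so a difference as large as the limit of 0.2 lies outside this interval. Across genotypes the C and MS medians of Sgk1 were 18.1 and 18.7, 17.2 and 17, and 18.2 and 18.3 CPM for the wildtype, heterozygote and knockout.

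Crh (ENSMUSG00000049796.4, chr3:19693401-19695396, minus strand), which encodes the hormone itself, had 3 loci, and the body of the gene held none. The nearest, upstream at chr3:19695871-19696913, held 1.81, 2.65 and 4.48 CPM in C and 1.32, 2.19 and 5.17 CPM in MS, and its log2 fold change was -0.07 ± 0.13 (adjusted p = 0.875, edgeR). It had only 0.575 CpGs per 100 bp. The next upstream locus, chr3:19697101-19698434, had -0.09 ± 0.11, and the downstream locus with the most counts per kb, chr3:19690512-19691416, which lies in the neighbouring gene Trim55, had 0.01 ± 0.12. Summed over the loci, Crh held 6.3, 8.57 and 13.1 CPM in C and 5.29, 7.64 and 12.6 CPM in MS. The log2 fold change was -0.05 ± 0.09 (95% interval -0.23 to 0.12, adjusted p = 0.789, edgeR), and 2 of 22 MS libraries lay below every C library. Medians of Crh in C and MS were 8.29 and 7.58 CPM for Tph2+/+, 9.14 and 7.76 CPM for Tph2+/- and 8.56 and 7.68 CPM for Tph2-/-, lower after MS in each genotype but within the range of the C libraries.

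Crhr1 (ENSMUSG00000018634.10, chr11:104132855-104175523, plus strand), the main receptor for the hormone in the forebrain, had 14 loci, 9 of them with higher estimates after MS. The smallest p was at an intron locus, chr11:104162670-104163697, with 1.45, 2.92 and 4.14 CPM in C and 2.02, 3.23 and 4.79 CPM in MS, a log2 fold change of 0.23 ± 0.11 (adjusted p = 0.374, edgeR). The same locus differed between C mice of the late and early sample numbers by 0.43 ± 0.17. With a covariate for S42 to S48, which sets MS against the C level of S1 to S17, the MS difference was 0.37 (adjusted p = 0.33, edgeR), past the limits. The locus with the most counts per kb, over coding exons at chr11:104168209-104170771, held 8.02, 10.9 and 14.5 CPM in C and 8.13, 11.3 and 21.2 CPM in MS, a log2 fold change of 0.12 ± 0.08 that was -0.03 ± 0.08 without S18 to S26. Near the start, the intron locus chr11:104134683-104135621 had 0.02 ± 0.13 and the upstream locus chr11:104127825-104128568 had -0.28 ± 0.14 (adjusted p = 0.428, edgeR). The sum was 34.9, 39.6 and 43.5 CPM in C and 34.4, 39.7 and 60 CPM in MS. Its log2 fold change was 0.05 ± 0.04 (95% interval -0.02 to 0.13, adjusted p = 0.477, edgeR). The medians of Crhr1 did not share a direction, with 39.8 CPM in C and 38.1 CPM in MS of the wildtype, 39.2 and 40.5 CPM of the heterozygote and 39.6 and 42.2 CPM of the knockout.

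Crhr2 (ENSMUSG00000003476.16, chr6:55090049-55133016, minus strand), the receptor that prefers the urocortins, had 10 loci, 7 of them with higher estimates and none with a p under 0.05. The smallest p was at the untranslated exon of the 3′ end, chr6:55089678-55090360, with 0.519, 1.68 and 2.41 CPM in C and 0.436, 1.27 and 2.76 CPM in MS, a log2 fold change of -0.29 ± 0.16 (adjusted p = 0.484, edgeR). The coding exon locus beside it, chr6:55090859-55091844, which had the most counts per kb, had 0.18 ± 0.11, and the locus nearest to the 5′-most start, chr6:55126776-55127686, had 0.10 ± 0.14. The sum was 22.5, 26.5 and 31.2 CPM in C and 23.2, 27.5 and 33.7 CPM in MS, with 17 of 22 MS libraries above the C median. Its log2 fold change was 0.05 ± 0.04 (95% interval -0.03 to 0.13, adjusted p = 0.486, edgeR). In Tph2+/+ mice the medians of Crhr2 were 26.2 CPM in C and 26.5 CPM in MS, in Tph2+/- mice 26.2 and 27.9 CPM, and in Tph2-/- mice 27.7 and 27.3 CPM.

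Crhbp (ENSMUSG00000021680.8, chr13:95431371-95444924, minus strand) encodes a secreted protein that binds the hormone and keeps it from its receptors. The locus over its start, chr13:95444472-95445982, which holds the promoter printed above, also had the most counts per kb of the gene. Over genotypes it held 3.92, 5.15 and 7.67 CPM in C and 3.4, 5.72 and 9.48 CPM in MS, a log2 fold change of 0.16 ± 0.09 (adjusted p = 0.486, edgeR). An intron locus, chr13:95435139-95435819, had 0.32 ± 0.16 (adjusted p = 0.394, edgeR), and the locus at the 3′ end, chr13:95430293-95431579, had -0.01 ± 0.09. Summed over its 5 loci, Crhbp held 11.2, 16.4 and 18.7 CPM in C and 14.3, 16.8 and 20.2 CPM in MS, a log2 fold change of 0.07 ± 0.05 (95% interval -0.03 to 0.16, adjusted p = 0.497, edgeR). By genotype, the C and MS medians of Crhbp were 16.4 and 16.4 CPM (wildtype), 16.8 and 16.7 CPM (heterozygote) and 16.2 and 17.2 CPM (knockout).

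Of the 8 gene sums, 0 passed the limits of the study over genotypes, against 3.29% of the 37004 genes with a locus, and 1 had a p under 0.05, against 17.9% of all genes. By DESeq2 0 passed as well. The count by edgeR stayed 0 in every other comparison of the sums. There, the share of all genes that passed was 1.43% for MS in Tph2+/+, 0.662% for MS in Tph2+/-, 2.16% for MS in Tph2-/-, 0.389% for Tph2+/- and 0.603% for Tph2-/- against Tph2+/+, 0.5% and 0.511% for the interactions of Tph2+/- and of Tph2-/- with MS, and 1.71% for late against early C libraries. By unadjusted p under 0.05, edgeR called 1 of the 8 sums for MS in Tph2+/+ (Nr3c2, 0.12 ± 0.05), against 7.2% of all genes, 1 for MS in Tph2-/- (10.7%) and 1 for the interaction of Tph2-/- with MS (3.28%), both Crhr1, and 0 in the others.

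**Figure D4:**
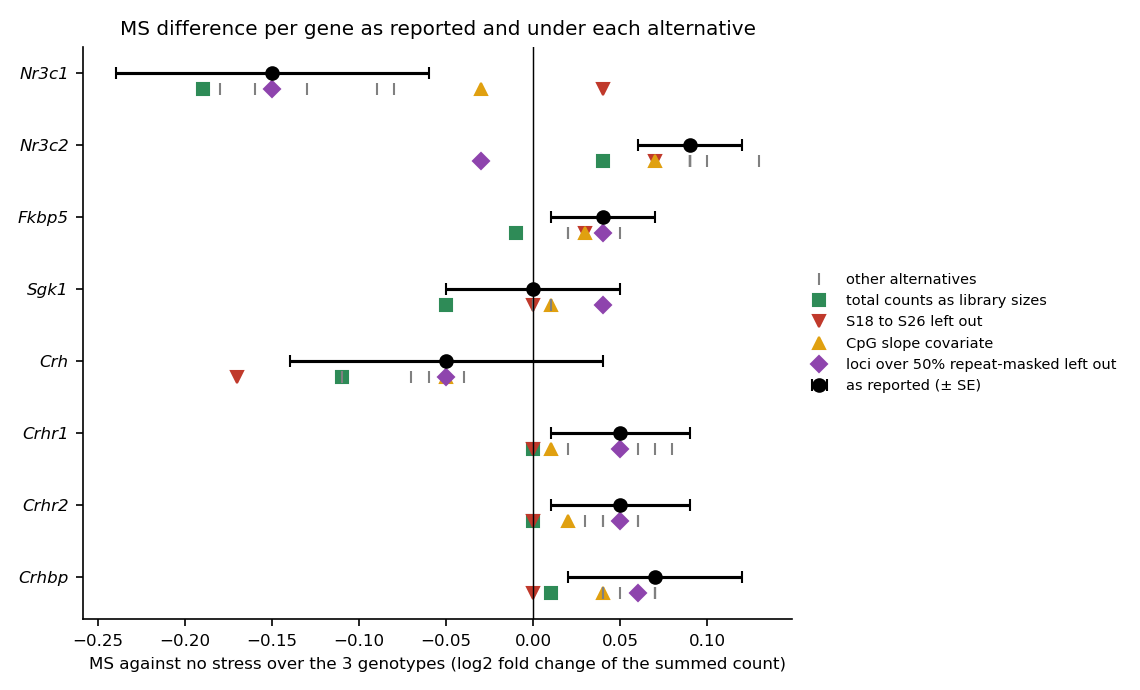
For each of the 8 genes, the black point is the log2 fold change of the summed count, MS against C over the 3 genotypes, with its SE, and the marks below it are the same value under each alternative way of processing. The Nr3c2 value of 0.09 falls to -0.03 without repeat-masked loci, and the Nr3c1 value of -0.15 moves to 0.04 without S18 to S26.

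Within the genotypes, 1 of 78 loci passed the limits in each. In Tph2+/+ mice (1.31% of all loci passed) it was the start locus of Crhbp. Its C libraries lay within 4.24 and 5.91 CPM with a median of 4.69, and its MS libraries between 3.49 and 8.79 CPM with a median of 7.38, so the MS group was more spread and mostly higher. The log2 fold change was 0.44 ± 0.16 (adjusted p = 0.756, edgeR), against 0.04 in Tph2+/- and 0.01 in Tph2-/- mice. The differences between these effects were -0.40 ± 0.23 for Tph2+/- and -0.43 ± 0.23 for Tph2-/- against Tph2+/+ (both with an adjusted p of 1 by edgeR and an unadjusted p over 0.05). The difference of Tph2-/- from Tph2+/+ was -0.56 ± 0.22 with replicates 2 and 3 of the Tph2-/- MS group dropped and 7 kept, -0.51 ± 0.21 with the CpG slope and -0.50 ± 0.27 without S18 to S26, with an unadjusted p under 0.05 in the first 2 and adjusted p of 1, 1 and 0.999 by edgeR. Of the MS libraries of all genotypes, 6 of 22 lay above every C library and 2 below, and 4 of the 6 belonged to S18 to S26. Without S18 to S26 the difference in Tph2+/+ mice was 0.19 ± 0.17 and with the slope 0.31 ± 0.14, and it was not past the limits in either, nor with DESeq2, total counts or the covariate for S42 to S48.

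In Tph2+/- mice (0.779% of all loci) an intron locus of Nr3c2, chr8:77078196-77079149, was lower after MS, with 1.35, 2.94 and 3.98 CPM in C and 1.18, 1.72 and 2.59 CPM in MS. The log2 fold change was -0.60 ± 0.22 (adjusted p = 1, edgeR). It was not past the limits with all 48 libraries (-0.60 ± 0.23), without S18 to S26 (-0.54 ± 0.24), with the CpG slope (-0.52 ± 0.22), with total counts or with the covariate for S42 to S48. In Tph2-/- mice (1.48% of all loci) another intron locus of Nr3c2, chr8:77199930-77200577, was lower after MS, with 0.771, 1.67 and 2.66 CPM in C and 0.277, 0.509 and 1.77 CPM in MS (n = 8 and 6). The log2 fold change was -1.01 ± 0.36 (adjusted p = 0.656, edgeR), which rests on a mean count of 14.1 over all 48 libraries. It was -0.47 ± 0.40 without S18 to S26, where S33, S34 and S37 remained of the Tph2-/- MS group. Nor was it past the limits with all 48 libraries (-0.79 ± 0.33), with replicates 2 and 3 dropped and 7 kept (-0.71 ± 0.34), with the slope (-0.88 ± 0.35) or with the covariate for S42 to S48. Both loci were named after their values were seen.

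Against Tph2+/+, averaged over C and MS, 0 of 78 loci passed in Tph2+/- mice (0.546% of all loci, 1 member with an unadjusted p under 0.05 by edgeR against 3.47% of all loci, and 0 past the limits by DESeq2) and 2 passed in Tph2-/- mice (0.748%). These were an intron locus of Sgk1, chr10:21912395-21913396, higher by 0.52 ± 0.18, and an intron locus of Fkbp5, chr17:28410821-28411682, with -0.48 ± 0.18, both with an adjusted p of 1 by edgeR. At the Sgk1 locus the group medians were 1.67 and 2.05 CPM in Tph2+/+ C and MS and 2.44 and 2.83 CPM in Tph2-/- C and MS. At the Fkbp5 locus they were 2.21 and 2.42 CPM in Tph2+/+ and 1.99 and 1.42 CPM in Tph2-/- mice, and the ranges of the genotypes overlapped at both. These 2 loci, too, were named after their values were seen.

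The interactions ask whether the MS effect differed between genotypes. For Tph2+/- against Tph2+/+ (GE1), 0 of 78 loci passed the limits by edgeR and by DESeq2 (0.626% of all loci by edgeR), and 5 members (6.41%) had an unadjusted p under 0.05, against 3.71% of all loci. For Tph2-/- against Tph2+/+ (GE2), 5 members (6.41%) had an unadjusted p under 0.05 by edgeR, against 3.36% of all loci. There, 1 passed the limits (0.558% of all loci), the locus over the untranslated exon at the 3′ end of Crhbp, chr13:95430293-95431579. In Tph2+/+ mice it held 3.59, 4.96 and 6.18 CPM in C and 2.65, 3.95 and 4.65 CPM in MS, and in Tph2-/- mice 2.46, 4.75 and 5.23 CPM in C and 4.59, 5.08 and 6.66 CPM in MS. The MS libraries thus tended lower in the wildtype and higher in the knockout, with log2 fold changes of -0.35 ± 0.16 and 0.34 ± 0.17, and ranges that overlapped in both. Replicates 3 and 7 of Tph2-/- MS, left out of the fits, held less, with 3.46 and 3.22 CPM. The knockout value was 0.23 ± 0.16 with all 48 libraries and 0.26 ± 0.17 with replicates 2 and 3 dropped and 7 kept. Without S18 to S26 it was 0.17 ± 0.21, and the unadjusted p was over 0.05 by edgeR in each of these. The difference of the effects was 0.69 ± 0.23 (adjusted p = 1, edgeR), and it was 0.61 ± 0.24 with replicates 2 and 3 of the Tph2-/- MS group dropped, and 7 kept, 0.58 ± 0.23 with all 48 libraries and 0.50 ± 0.28 without S18 to S26, past the limits in none of these, and 0.68 ± 0.23 with the slope, past them. At the start locus of the same gene the wildtype had the higher estimate, so the 2 ends of Crhbp had GE2 values of opposite sign. Between them, the coding exon locus chr13:95441560-95442905 had a GE2 of -0.58 ± 0.28 (unadjusted p = 0.038, edgeR). The intron loci chr13:95435139-95435819 and chr13:95437802-95438518 had 0.40 ± 0.39 and 0.09 ± 0.42.

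For the sum of Crhr1, GE2 was 0.19 ± 0.09 (95% interval 0.00 to 0.38, adjusted p = 1, edgeR), with 36.2, 42.2 and 60 CPM in Tph2-/- MS against 34.9, 39.6 and 43.5 CPM in Tph2-/- C. The value of 60 CPM belonged to replicate 2, the library with the CpG slope of 0.211. With replicates 2 and 3 of the Tph2-/- MS group dropped, and 7 kept, the GE2 value of Crhr1 was 0.08 ± 0.08, and the MS difference in Tph2-/- mice was 0.03 ± 0.06 in place of 0.14 ± 0.07. With the CpG slope as a covariate GE2 was 0.17 ± 0.08 and the MS difference in Tph2-/- mice 0.08 ± 0.06, with all 48 libraries 0.19 ± 0.09 and 0.14 ± 0.06, and without S18 to S26 0.09 ± 0.10 and 0.02 ± 0.07.

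**Figure D5:**
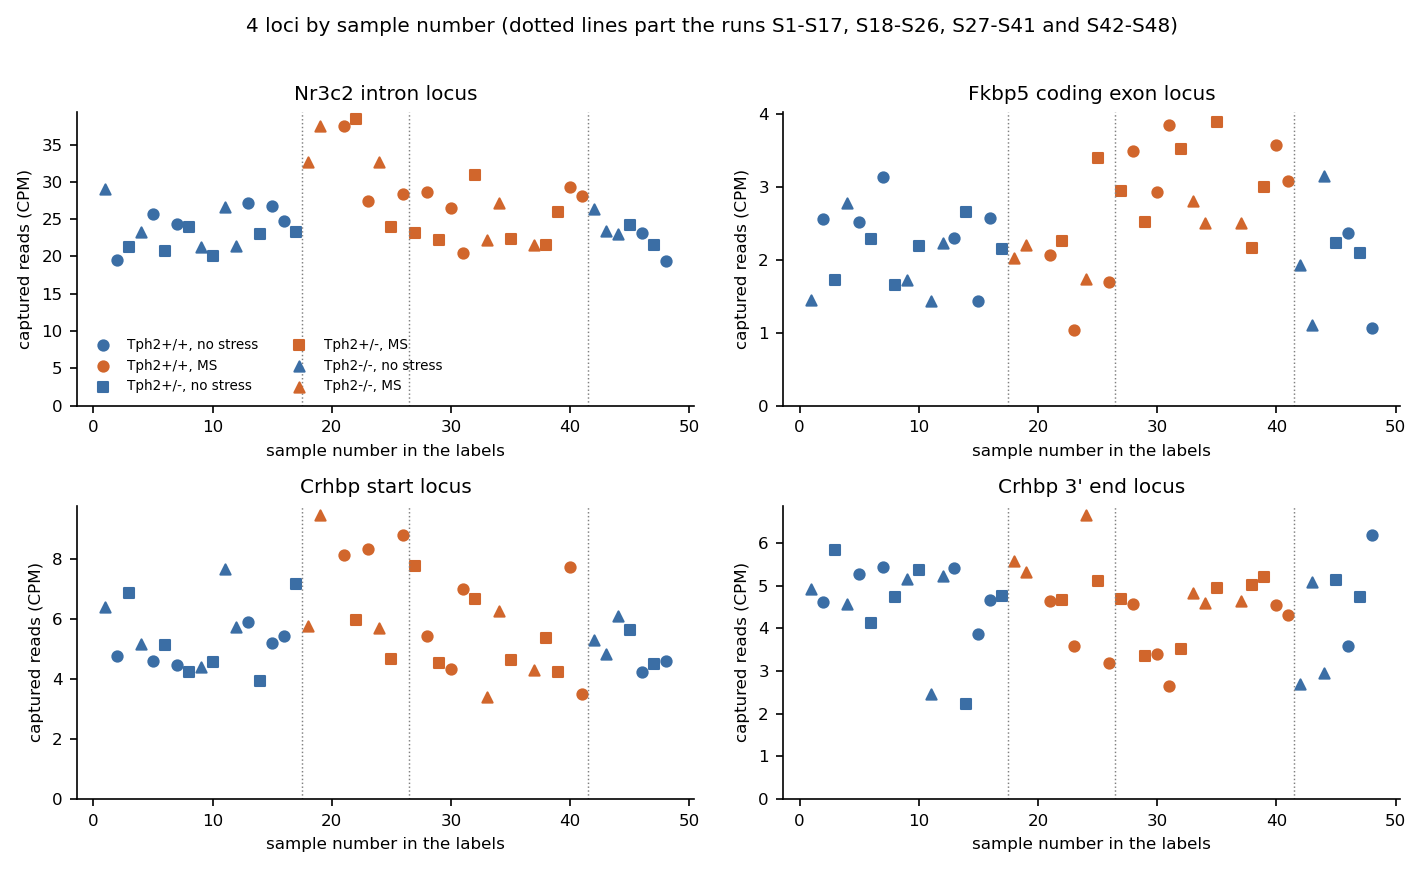
Captured DNA in CPM at 4 loci for each of the 46 libraries, in the order of the sample numbers in the labels; C is blue, MS orange, marker shapes are genotypes, and dotted lines part the runs of numbers. MS libraries above every C library lie mostly in S18 to S26 at the Nr3c2 intron locus (5 of 7) and the Crhbp start locus (4 of 6), and mostly in S27 to S41 at the Fkbp5 coding exon locus (5 of 6).

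How far C mice differed among themselves was read from S42 to S48 against S1 to S17, with the group in the fit. Of the 78 loci 1 passed the limits, against 1.74% of all loci, an intron locus of Nr3c2 at chr8:77102698-77103320, also named after its values were seen. It held 0.412, 1.43 and 2.39 CPM in S1 to S17 and 1.54, 2.61 and 3.35 CPM in S42 to S48, a difference of 0.70 ± 0.22 (adjusted p = 0.464, edgeR). Among mice that had all been left with the dam, 1 locus thus passed, as for MS over genotypes. The 2 counts do not compare like with like, since the median SE of the members was 0.20 here and 0.13 for MS. The shares of all loci that passed were 1.74% and 3.63%.

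Other genes of the pathway were summed in the same way, and 34 of 40 had a locus. Over genotypes 1 passed the limits, with a higher level after MS, and 0 with a lower level, against 3.29% of all genes, and 6 (17.6%) had a p under 0.05, against 17.9% of all genes. The gene that passed was Pcsk2, a protease that cleaves the Pomc product, with 0.29 ± 0.09 (adjusted p = 0.118, edgeR). Among the POMC processing genes and melanocortin receptors (6 of 8 tested, median 0.09), Mc2r, the corticotropin receptor, had 0.14 ± 0.05 and Mc4r 0.30 ± 0.15. The 6 receptor chaperones tested had a median of -0.07, with Ppid, a cyclophilin that binds the receptor complex, at -0.37 ± 0.18. The 4 genes of steroid handling had a median of 0.03, with Abcb1a, a transporter that exports steroids at the blood-brain barrier, at 0.24 ± 0.11, H6pd at 0.07 ± 0.03 and Hsd11b1, whose enzyme regenerates active glucocorticoid, at -0.11 ± 0.06. The 3 urocortin genes ranged from -0.01 to 0.01, the 5 coregulators from -0.03 to 0.10, and the 10 glucocorticoid-induced genes from -0.12 to 0.15 with a median of 0.05, none of these with a p under 0.05. The median over all genes was 0.022. For GE1 and GE2, 0 of the 34 passed, against 0.5% and 0.511% of all genes, and 0 had a p under 0.05 by edgeR. For MS in Tph2+/+ mice 1 passed, against 1.43% of all genes, Mc2r with 0.22 ± 0.08 (adjusted p = 0.641, edgeR). For Tph2-/- against Tph2+/+, 1 passed, against 0.603%, Errfi1, higher by 0.21 ± 0.07 (adjusted p = 0.967, edgeR).

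Captured DNA at marker genes is no measure of which cells were present, and it is given here only because the amygdala holds several cell types. Of 19 markers, 17 had a locus and 0 passed the limits over genotypes, against 3.29% of all genes, with 3 at a p under 0.05 by edgeR, against 17.9%: the astrocyte gene Gfap (0.11 ± 0.05) and the microglia genes Aif1 (0.41 ± 0.18) and Csf1r (-0.10 ± 0.05). In Tph2+/+ mice Csf1r passed the limits, with -0.21 ± 0.08 after MS (adjusted p = 0.631, edgeR). Medians were 0.00 or within 0.04 of it for neurons, oligodendrocytes, astrocytes and microglia.

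The members did not move together across libraries. Over the 28 pairs of gene sums, Pearson's r of log2 CPM over the 46 libraries, which share depth and capture, ran from -0.42 (Nr3c1 and Crhr1) to 0.41 (Crhr1 and Crhr2) with a median of 0.03. Tph2-/- MS replicate 2 had the highest Crhr1 sum (60 CPM), the lowest Nr3c1 sum (2.66 CPM) and a high Crhr2 sum (33 CPM). The r values without this library were not computed. Among 15790 genes with a mean summed count of 100 or more, those most like Nr3c1 were Efna5 (r = 0.75) and Gm23050 (0.73), those most like Crh were Sox1ot (0.56) and Tmem37 (0.54), and those most like Fkbp5 were 4930425O10Rik and Nxn (0.60 each).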

How the data were processed

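MBD-seq was performed on amygdala DNA of 48 mice with paired 50 bp reads and a planned depth of 20 Mreads per sample. Per the methods and the submitters' processing notes, the authors mapped reads to GRCm38 with Bowtie2 2.1.0, called peaks with MACS and counted reads per merged peak with DiffBind 2.0.9. The table holds the raw counts that the authors deposited, and its 48 columns were matched to samples by the labels. Treatment of duplicate and multiply mapped reads is not given in the sources used here.

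All loci, and counts summed per gene, were fitted with edgeR 4.0.16 in R 4.3.3 (TMM, robust quasi-likelihood, 1 term per group, no covariate), and p-values were adjusted over all loci or all genes. The methods state that 2 Tph2-/- MS libraries were dropped, and the labels do not name them, so those with the lowest totals were left out. Copies of loci were sought with minimap2 2.31. For each gene, the loci named are those with the smallest p for MS over genotypes, at or nearest to the 5′-most start, with the most counts per kb, and past the limits over genotypes, in GE1 or in GE2. Other loci were named after their values were seen. The members, lists and tests were chosen with earlier results of these data known. The fit was tested on simulated data. Alternatives were DESeq2 1.42.0 and its size factors, total counts, a low-count filter, all 48 libraries, replicates 2 and 3 of the Tph2-/- MS group left out instead, a covariate for S42 to S48, S18 to S26 left out, the CpG slope as covariate, the replicate block, and other gene windows. The covariate for S42 to S48 marks C libraries only, so with it MS is set against the C level of S1 to S17. RefSeq gene bodies, sums without loci over 50% repeat-masked and levels without copied loci were added after the data were seen. A median of 24.6 counts per locus and library limits the precision.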

Additional observations from a re-analysis of the deposited data

Results flagged for a closer look

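In 180 sets of libraries (the named loci and the gene sums in each group), 7 had a library far from the others by Dixon's test, and chance gives about 1 in 20. Tph2-/- MS replicate 2 gave 3 of them, with a Crhr1 sum of 60 CPM (next 42.9), an Fkbp5 sum of 74.4 CPM (next 59.2) and the Crhr1 coding exon locus at 21.2 CPM (next 12.9). Its CpG slope was 0.211. With the slope as a covariate, the MS difference in Tph2-/- mice went from 0.14 to 0.08 for the Crhr1 sum, from 0.06 to 0.04 for the Fkbp5 sum and from 0.16 to -0.00 for the Crhr1 locus. The other high libraries were Tph2-/- C replicate 6 at the Nr3c1 sum (10 CPM, next 8.02), Tph2+/- C replicate 3 at the Fkbp5 intron locus chr17:28492158-28493670 (10.1 CPM, next 7.48), Tph2+/+ C replicate 4 at the Crh locus nearest to the start (4.1 CPM, next 2.78) and Tph2+/+ MS replicate 1 at the Sgk1 locus nearest to the start (4.65 CPM, next 3.27).

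Effects of MS that differed between genotypes by the interaction term, at an unadjusted p under 0.05 among the named loci past the limits and the gene sums, were GE2 at the 3′ end locus of Crhbp (0.69) and GE2 of the Crhr1 sum (0.19), both with an adjusted p of 1 by edgeR. With the slope they were 0.68 and 0.17, and without S18 to S26 0.50 and 0.09.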

How the results depend on the processing

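Of 80 counts of calls under alternatives, 47 rested on the same loci as reported, 5 had the same number but other loci and 28 another number. Among values of the gene sums 3 turned sign and 1 came to pass an adjusted p of 0.05, and 22 values of named loci turned sign. Fold changes that round to 0.00 were taken to have no direction. The 5 with other loci were Fkbp5 28405810 in place of Nr3c2 77140367 for MS over genotypes without S18 to S26 and with the slope, Fkbp5 28405810 in place of the Crhbp start locus in Tph2+/+ and Sgk1 21898637 in place of Nr3c2 77199930 in Tph2-/- mice without S18 to S26, and Nr3c2 77140367 in place of Nr3c2 77078196 in Tph2+/- mice with total counts. The number of the 78 loci past the limits changed as follows, and causes were not tested. For MS over genotypes (1 as reported) it was 0 with total counts and 2 with DESeq2, with all 48 libraries, with Tph2-/- MS replicates 2 and 3 left out instead, and with the covariate for S42 to S48. For MS in Tph2+/+ (1) it was 2 with total counts and 0 with DESeq2, the covariate for S42 to S48 and the CpG slope. For MS in Tph2+/- (1) it was 0 with all 48 libraries, the covariate, S18 to S26 left out and the slope. For MS in Tph2-/- (1) it was 2 with total counts and all 48 libraries and 0 with replicates 2 and 3 left out, the covariate and the slope. For Tph2+/- against Tph2+/+ (0) it was 1 with replicates 2 and 3 left out and 2 without S18 to S26. For Tph2-/- against Tph2+/+ (2) it was 1 without S18 to S26 and with the slope. GE1 (0) gave 1 without S18 to S26, and GE2 (1) gave 0 with all 48 libraries, with replicates 2 and 3 left out and without S18 to S26. Over all loci the count for MS over genotypes was 6816, and 6072 with total counts, 7792 with DESeq2, 10861 with all 48 libraries, 4835 with replicates 2 and 3 left out, 4480 with the covariate, 2624 with the slope and 2374 without S18 to S26.

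Among the gene sums, Nr3c1 turned to 0.04 without S18 to S26, Fkbp5 to -0.01 with total counts and Nr3c2 to -0.03 without loci over 50% repeat-masked, and DESeq2 gave Nr3c2 0.09 with an adjusted p of 0.0454, within a range of 0.0454 to 0.801 over alternatives. Among named loci, those that turned sign without S18 to S26 were Crhr1 104134683 (-0.09), Crhr1 104168209 (-0.03), the Crhbp start locus (-0.02), Fkbp5 28492158 (-0.08), Fkbp5 28508311 (-0.07), Nr3c1 39422164 (0.02), Nr3c1 39516393 (0.05), Crh 19690512 (-0.16) and Crhr2 55090859 (-0.06). With the slope they were Crhr1 104134683 (-0.06), Fkbp5 28508311 (-0.04), Nr3c1 39516393 (0.01), Crh 19690512 (-0.05) and Crhr2 55090859 (-0.03). With total counts they were Crhr1 104134683 (-0.04), Fkbp5 28492158 (-0.01), Fkbp5 28508311 (-0.04) and Crh 19690512 (-0.04). With replicates 2 and 3 left out they were Crhr1 104134683 (-0.12), Fkbp5 28508311 (-0.04) and Crh 19690512 (-0.04), and with the covariate Fkbp5 28508311 (-0.03).

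Deviations of same-numbered libraries had a median r of 0.0123 (-0.181 to 0.29 over 110 pairs, 11 over 0.1). Pairs of libraries with other numbers had a median of -0.000691 (-0.35 to 0.402 over 770 pairs, 63 over 0.1). The numbers were thus not taken as pairs, and shared litters were not tested. The replicate block gave 2 calls for MS in Tph2-/- (1 without the block) and 1 for Tph2-/- against Tph2+/+ (2 without).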
